A study of Mus musculus with 2 samples.

Results

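Insulin-rich beta cells without interferon RNA were taken from single-cell libraries of pancreatic islets as the droplet barcodes in which insulin messenger RNA was at least 10% of all unique molecular identifiers (UMIs, counted molecules). Each member also had at least 200 detected genes, at most 20% mitochondrial UMIs, Gcg, Sst and Ppy each under 2% of its UMIs, and no more than 1 UMI over 8 interferon-induced genes (Iigp1, Gbp4, Gbp6, Gm4841, F830016B08Rik, Rsad2, Igtp and Irgm1). These values chose the members, so insulin, the other hormones and those 8 genes are given as a description. The rule took 424 of 8813 kept barcodes, 196 of 4628 in the HAMSAB library and 228 of 4185 in the HAMS library. NOD, an inbred mouse line prone to autoimmune diabetes, supplied the islets. Mice aged 5 weeks were fed HAMSAB, a high-amylose maize starch carrying acetyl and butyryl groups, or HAMS, that starch without them, for 5 weeks. Both groups share the NOD genotype and the starch, and no group without starch was analysed here. Each diet has 1 library and the labels do not give the number of mice in it, so that no difference between the diets has a replicate check or a test, and the 95% intervals given cover counting error alone.

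Beta cells make insulin, process it from proinsulin in secretory granules together with amylin (Iapp), and release both when glucose metabolism closes potassium channels and lets calcium in. Mice carry a pair of insulin genes, Ins1 and Ins2. In NOD islets, beta cells near infiltrating immune cells switch on interferon-induced genes, and T cells recognise peptides of insulin, chromogranin A and amylin.

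Insulin and amylin are shown first as promoters, because RNA of Iapp followed the insulin share of a member in both libraries. The 250 bases before the start of each gene are given from RefSeq promoters on GRCm38.p6, plus strand, with the letters CATCTG, the E box of insulin promoters that NeuroD1 binds, in capitals. The Ins1 promoter lies at chr19:52264047-52264296 and the Iapp promoter at chr6:142298175-142298424.
Ins1: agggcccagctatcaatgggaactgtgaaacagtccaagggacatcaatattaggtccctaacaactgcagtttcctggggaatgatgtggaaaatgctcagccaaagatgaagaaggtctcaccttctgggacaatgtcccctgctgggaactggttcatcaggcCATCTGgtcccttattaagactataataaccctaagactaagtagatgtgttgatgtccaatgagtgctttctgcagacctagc
Iapp: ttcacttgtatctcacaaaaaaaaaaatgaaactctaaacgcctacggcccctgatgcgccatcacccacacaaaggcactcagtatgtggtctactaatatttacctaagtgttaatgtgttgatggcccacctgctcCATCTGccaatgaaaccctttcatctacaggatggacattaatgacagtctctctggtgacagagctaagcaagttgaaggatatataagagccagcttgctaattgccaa
Each window holds CATCTG 1 time, counting both strands, and none of its letters can be shared with TAAT, while 14.4% of 32851 RefSeq windows of that length hold it at least once. TAAT, the core of the site bound by Pdx1, occurs on either strand 3 times before Ins1 and 5 times before Iapp, and 54.9% of windows hold it. These are matches of letters, with no measurement of binding.

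HAMSAB members were deeper than HAMS members, with a median of 793 against 586 UMIs and 439.5 against 317 genes. After each was thinned to 500 UMIs, which left out 40 HAMSAB and 86 HAMS members, the medians were 306 and 291 genes. Summed UMIs were close, 192144 in HAMSAB and 193030 in HAMS members. The libraries share 6 barcode sequences, and 1 member carries one of them. No doublet caller was run, and members that hold more than one cell were not removed.

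A set of HAMS members mostly matched each other within counting noise. Among members of at least 1000 UMIs, pairs were compared by a chi-square of their counts over genes. The chi-square per degree of freedom had a median of 8.26 over 2926 HAMSAB pairs and 19.5 over 903 HAMS pairs, where counting error alone gives a value near 1. In 11 HAMS members it lay between 0.779 and 1.79, with a median of 1.31. Of their 55 pairs 49 had a chi-square p over 0.01, where a set needed 80% of its pairs to do so. These 11 barcodes held 2689 to 3961 UMIs each, 38.5% to 45.1% insulin, 28 to 48 Sst UMIs, 9 to 15 Gcg UMIs and 0 to 3 Malat1 UMIs. Together they gave 18.7% of all HAMS member UMIs. Their sequences differed from each other at 8 to 14 of 16 bases, and 4 further HAMS barcodes joined the set when the interferon limit was dropped. A pair of HAMS members of 3484 and 3834 UMIs met the same limit, as did 2 shallower pairs in HAMS and 7 in HAMSAB. Because such barcodes may not be separate cells, values between the diets are given for all members, with each alike set counted once as its mean, and for the members of 10 to 20% insulin alone. Both additions were chosen after the data were seen.

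**Figure D1:**
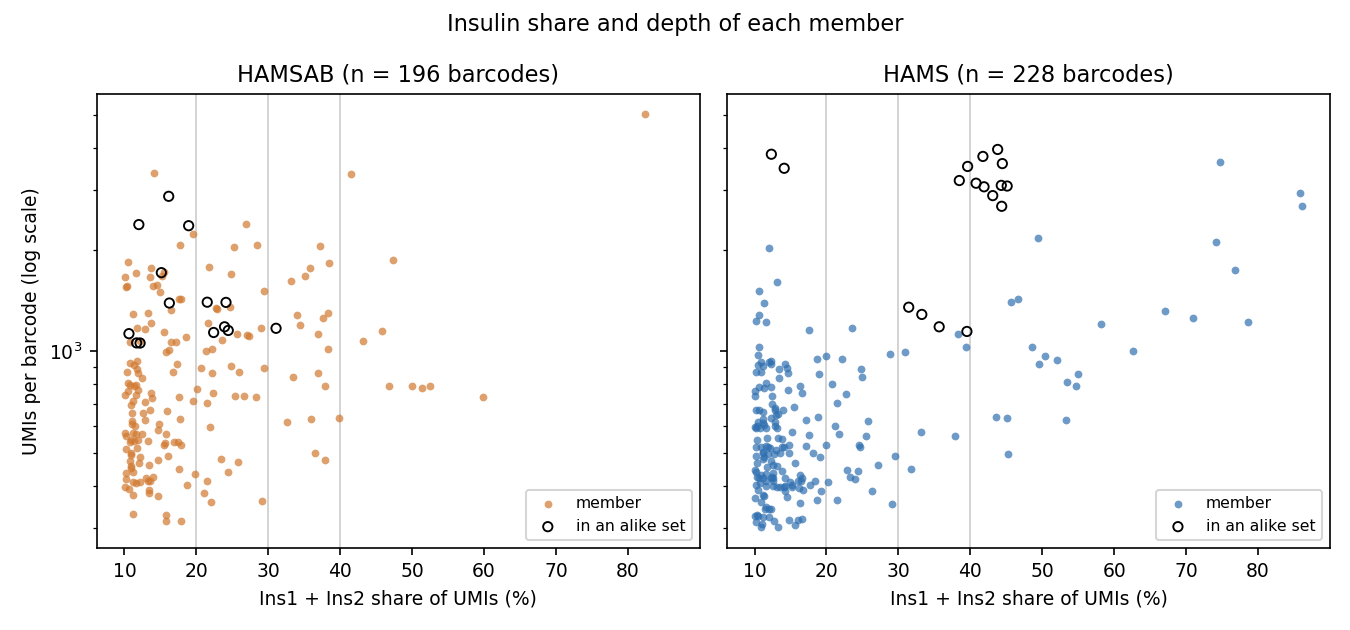
Each point is 1 member, placed by its insulin share of UMIs (x axis, %) and its UMIs (y axis, log scale), for HAMSAB (left) and HAMS (right). Open circles mark members in an alike set, among them the 11 HAMS barcodes between 38.5% and 45.1% insulin, and the vertical lines mark 20%, 30% and 40%.

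Members carried the beta cell markers far above the level of barcodes that should lack them. Iapp was seen in 96.4% of HAMSAB and 90.8% of HAMS members, against 5.75% and 9.92% of immune barcodes of the same libraries. G6pc2, the islet glucose-6-phosphatase, was seen in 60.2% of HAMSAB and 41.7% of HAMS members, against 1.63% and 3.84% of immune barcodes. Ppp1r1a, an inhibitor subunit of protein phosphatase 1, was seen in 30.1% and 33.3%, against 0.461% and 2.13%. Immune barcodes held a median of 721 UMIs in HAMSAB and 767 in HAMS, close to or above the depth of members. Mafa, a transcription factor of mature beta cells, was seen in 59.2% of HAMSAB and 50.4% of HAMS members and in 1.45% and 4.13% of immune barcodes.

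The insulin share had a median of 15.8% in HAMSAB and 14.1% in HAMS members, with ranges of 10% to 82.5% and 10% to 86.2%. Ins1 made up 27.3% of insulin UMIs in HAMSAB and 26.7% in HAMS. Reads could be split wrongly between Ins1 and Ins2, whose transcripts share runs of up to 56 identical bases. Many members sat close to the limits of the rule. Between 10% and 12% insulin lay 55 HAMSAB and 70 HAMS members, while 80 and 155 barcodes missed only for an insulin share of 8% to 10%. A single interferon UMI was held by 41 HAMSAB and 64 HAMS members, and 21 and 34 barcodes missed for holding 2.

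Markers of other cell types were present in members at unlike levels between the libraries. Gcg had 20 UMIs in HAMSAB and 284 in HAMS members, and Sst had 10 and 484. Ppy had 2 and 31 UMIs and Pyy, another islet hormone gene, 0 and 15. The 11 alike HAMS barcodes gave 422 of those HAMS Sst UMIs and 133 of the Gcg UMIs, and the deep HAMS pair gave 105 Gcg UMIs. Irx1, a transcription factor gene of alpha cells, was at 0 in both libraries, and so were Ghsr and Lepr of the delta list, where a count of 0 allows up to 15.6 CPM in HAMSAB and 15.5 CPM in HAMS. Besides Gcg, the alpha list summed to 1155 CPM in HAMSAB and 554 CPM in HAMS members, with 100 and 52 UMIs of Ttr, which beta cells also express. The 9 acinar markers had 81 UMIs in HAMSAB members, 50 of them in 1 barcode, and none in HAMS. Plasma cell markers had 94 UMIs in HAMSAB, 54 of them in 1 barcode, and 1 in HAMS. T cell markers had 17 and 8 UMIs, B cell markers 17 and 3, and macrophage markers 6 and 6. Cd3d and Cd4 were at 0 in both. Endothelial markers were at 0 in HAMSAB and had 4 UMIs in HAMS, and stromal markers were at 0 and 5. The ductal list summed to 197 UMIs in HAMSAB and 187 in HAMS members. In that order Krt8 had 54 and 82, Cldn7 56 and 73, Krt18 35 and 30, Spp1 46 and 1 and Sox9 6 and 1, with Krt19 and Muc1 at 0 in both. The dendritic list summed to 114 UMIs in HAMSAB and 140 in HAMS members, all from Cd74 (74 and 80), H2-Aa (25 and 21) and H2-Ab1 (15 and 39), with Flt3, Xcr1, Itgax and Siglech at 0 in both. The part of these RNAs in the values below was not tested.

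Members made up 4.24% of kept HAMSAB barcodes (3.67 to 4.86, exact Clopper-Pearson interval) and 5.45% of kept HAMS barcodes (4.78 to 6.18), a ratio of 0.777 (0.639 to 0.945). The direction turned with a stricter gene limit. With at least 500 genes per barcode, 81 HAMSAB and 38 HAMS members were left, a ratio of 1.88 (1.26 to 2.84). Immune barcodes were 60.9% of kept HAMSAB and 40.5% of kept HAMS barcodes, and a share of barcodes moves with every other class. Set against barcodes with at least 10% insulin instead, members were 196 of 296 in HAMSAB and 228 of 342 in HAMS.

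Among members, Iapp was higher at high than at low insulin shares in both libraries. Levels here are UMIs of a gene per 1000000 UMIs other than Ins1 and Ins2 (CPM without insulin), so that insulin does not dilute them. In HAMSAB, Iapp was at 15301 CPM in the 125 members of 10 to 20% insulin, 30097 CPM at 20 to 30%, 47797 CPM at 30 to 40% and 30141 CPM at 40% and more (41, 20 and 10 members). In HAMS the same bins held 8172, 13746, 25199.6 and 26657 CPM (158, 25, 12 and 33 members). HAMSAB lay above HAMS in every bin, although the intervals of the top bins overlapped. The top HAMSAB bin, lower than the one before it, rests on 10 barcodes.

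Members of at least 30% insulin were set beside those of 10 to 20% in each library. Among genes with at least 50 UMIs, 4.52% in HAMSAB and 10.5% in HAMS were 2-fold higher or more in the insulin-richest members, and 14.2% and 11.6% were 2-fold lower or more. These genes come from the barcodes that the insulin share sorted, so they describe members and test nothing. Iapp had a log2 ratio of 1.46 (1.34 to 1.58) in HAMSAB and 1.68 (1.54 to 1.83) in HAMS. Mt1, which encodes the metal-binding metallothionein 1, was at 1027 against 368 CPM in HAMSAB and 1374 against 567 CPM in HAMS. Ppp1r1a followed with ratios of 1.04 and 1.24. The chaperone gene Hyou1 of the endoplasmic reticulum had 0.91 and 2.26 and Fkbp2, a peptidyl-prolyl isomerase of the same compartment, 1.47 and 1.75. Nme2 (1.5 and 1.24) and Morf4l2 (0.91 and 1.01) were higher too. With alike barcodes counted once, the HAMS ratios were 1.75 for Iapp, 1.16 for Hyou1, 0.91 for Fkbp2 and 0.23 for Nme2.

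On the lower side of insulin-richest members stood Chga, the granule protein chromogranin A, with -0.32 in HAMSAB and -0.79 in HAMS. Adam10, a membrane sheddase, was at 46.7 against 410 CPM in HAMSAB and 25.9 against 324 CPM in HAMS. These levels rest on 1 UMI against 39 in HAMSAB and 1 against 28 in HAMS. The nuclear noncoding RNA Neat1 had -1.49 and -1.13, the splicing kinase gene Clk1 -1.31 and -1.32, and Ptma, which encodes prothymosin alpha, -0.58 and -1.0. Ttyh2 (-1.1 and -0.93), the palmitoyltransferase gene Zdhhc2 (-1.26 and -1.06) and Sbno1 (-2.1 and -1.84) were lower too. All of these kept their sign in HAMS with alike barcodes counted once, Clk1 at -0.51 and Chga at -0.28.

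Along the insulin share, the lists given were chosen after their values were seen, the first pair because they were unlike between the libraries. Of the endoplasmic reticulum folding and stress list, 16 of 18 measured genes were higher in the insulin-richest HAMSAB members, with a median log2 ratio of 0.76, against 10 of 17 and 0.06 in HAMS. Of the genes of the mitochondrial genome, 10 of 12 were higher in HAMSAB (median 0.21) and 1 of 11 in HAMS (-0.8). With alike barcodes counted once the HAMS medians were 0.11 and 0.01. Further lists were unlike, HAMSAB before HAMS, with medians of 0.80 and -0.48 for islet autoantigens and 0.47 and -0.38 for glucose sensing genes. Immediate early genes had 0.17 and -0.61, beta cell transcription factors 0.22 and -0.42 and secretory granule genes 0.32 and -0.15. With alike barcodes counted once the HAMS medians were -0.28, 0.01, -0.28, 0.29 and 0.06 in that order. Medians were close for heat shock chaperones (-0.17 and -0.19) and 3 glycolysis genes (0.73 and 0.69). Of all genes with at least 20 UMIs, 520 of 1079 were higher in HAMSAB (median -0.05) and 401 of 1029 in HAMS (-0.21). None of these differences between the libraries was tested.

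In the insulin-richest members several RNAs other than insulin differed between the libraries, and those given were chosen after their values were seen. Malat1, a noncoding RNA held in the nucleus, was at 25546 CPM in HAMSAB and 3137 CPM in HAMS members of at least 30% insulin, against 26276 and 12639.5 CPM at 10 to 20%. In the 11 alike HAMS barcodes it was at 723 CPM, and in the other 34 HAMS members of at least 30% at 5943 CPM. The mitochondrial gene mt-Co1 had 1 UMI in the alike set, while the other HAMS members of at least 30% held 5831 CPM. HAMSAB members of at least 30% held 7753 CPM, and HAMS members of 10 to 20% held 5035 CPM. Sst was at 46.7 CPM in HAMSAB, from 1 UMI, and 12159.7 CPM in HAMS members of at least 30%, with 20352 CPM in the set and 2635 CPM outside it. Ogdhl, a relative of the oxoglutarate dehydrogenase of the citric acid cycle, was at 1541 CPM in HAMSAB, 14131 CPM in the HAMS set and 4149 CPM in the other HAMS members. In HAMS members of 10 to 20% Ogdhl was at 4005 CPM. All 51 Gpx3 UMIs of HAMS members of at least 30% lay in the set. In all, 30 HAMSAB members of at least 30% insulin gave 20.3% of HAMSAB member UMIs, and 45 HAMS ones gave 40.7% of theirs.

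**Figure D2:**
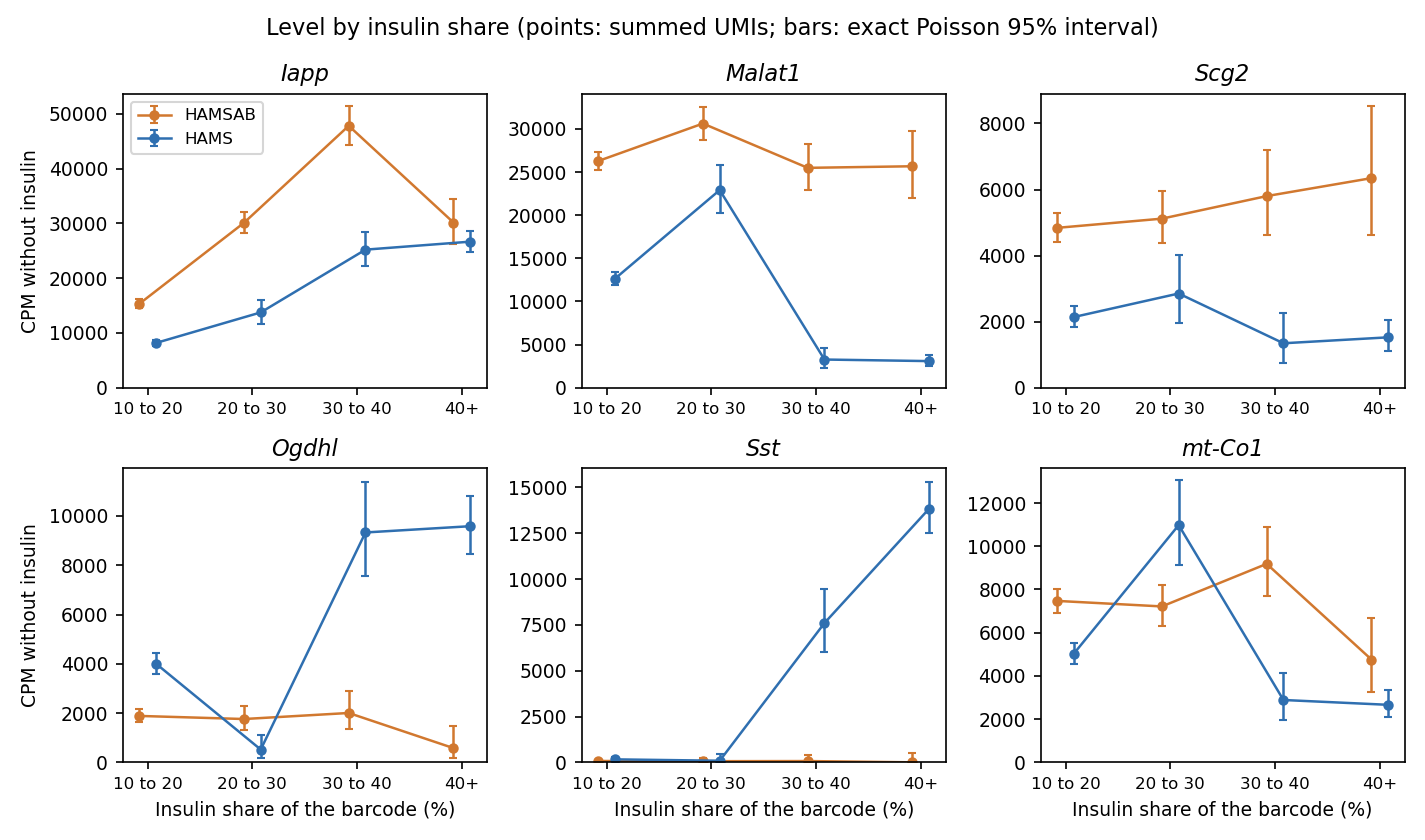
CPM without insulin (y axis) of 6 genes in members binned by insulin share (x axis, %), for HAMSAB and HAMS, with exact Poisson intervals. Iapp was higher at high insulin shares in both libraries, while Malat1 was low and Sst high in HAMS members of 30% insulin and more. There mt-Co1 was low and Ogdhl high in the 11 alike barcodes. The other HAMS members of 30% and more held 5831 and 4149 CPM of these, against 5035 and 4005 CPM at 10 to 20%.

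Between the diets, secretory granule genes had a median ratio above that of all genes and the measured interferon-induced genes outside the rule were lower in HAMSAB members. The interferon limit of the rule bears on the latter. Levels from here on to the comparison with other barcodes are UMIs per 1000000 UMIs of the members, insulin included (CPM). Ratios are log2 of HAMSAB over HAMS, and a ratio in parentheses is followed by its exact conditional binomial interval where one is given. Of 974 genes with at least 50 UMIs, 106 (10.9%) were 2-fold higher or more in HAMSAB members and 39 (4%) were as far on the lower side, and the median of all was 0.19. With alike barcodes counted once, 56 (6.41%) and 31 (3.55%) of 873 genes were apart. Among members of 10 to 20% insulin, where both libraries have most barcodes, 23 (3.87%) and 24 (4.04%) of 594 were. Over genes with at least 20 UMIs, the limit used for gene lists, the higher and lower shares were 16.4% and 4.73% in all members and 9.73% and 5.85% in members of 10 to 20%. With UMIs other than insulin as the denominator the counts were 64 higher and 56 lower, and the median was 0.06, a shift that bears on every ratio below.

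Nucb2, the precursor of the peptide nesfatin-1, had 437 CPM in HAMSAB and 77.7 CPM in HAMS members, a log2 ratio of 2.49 (1.69 to 3.39), and was seen in 27.6% and 5.7% of members. After thinning to 500 UMIs it was seen in 17.9% of 156 HAMSAB and 2.82% of 142 HAMS members. The granin Scg2, a core protein of dense granules, had 3924 CPM in HAMSAB and 1425 CPM in HAMS members (1.46, 1.26 to 1.67). Both stayed at least 2-fold higher with alike barcodes counted once, at 2.38 and 1.22, and among members of 10 to 20% insulin, at 2.69 and 1.16. Malat1 had 21010.3 CPM in HAMSAB and 7657 CPM in HAMS members, a ratio of 1.46 (1.37 to 1.54) that was 1.16 and 1.04 under those limits. Dapl1 had 42 UMIs in HAMSAB and 8 in HAMS members (2.4), with 1.21 among members of 10 to 20%.

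The other genes picked on the higher side were of several kinds. Sec62, part of the machinery that moves new proteins into the endoplasmic reticulum, had 255 CPM in HAMSAB and 67.3 CPM in HAMS members (1.92), and Kif1b, a kinesin motor, had 265 CPM in HAMSAB and 77.7 CPM in HAMS members (1.77). The LIM domain gene Lmo7 had a ratio of 1.67, the solute carrier gene Slc7a14 1.51, the imprinted noncoding RNA Rian 1.27 and AY036118 1.29. Rian was under 2-fold among members of 10 to 20% insulin (0.76), and AY036118 with alike barcodes counted once (0.97). Klf6, a zinc finger transcription factor, had 1.71 over all members and 0.85 at 10 to 20%. Tmsb4x, which encodes the actin-binding thymosin beta 4, had 427 CPM in HAMSAB and 104 CPM in HAMS members (2.04), and 15 of its 82 HAMSAB UMIs lay in 1 barcode. Immune barcodes held 3866 CPM of Tmsb4x in HAMSAB and 3461 CPM in HAMS, and the part of free RNA in its level was not tested.

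The lower side held Dtx3l, a ubiquitin ligase gene induced by interferon, which had 10 UMIs in HAMSAB and 50 in HAMS members, a ratio of -2.32 (-3.46 to -1.32). Pcsk1n, whose product proSAAS inhibits the convertase encoded by Pcsk1, had 687 CPM in HAMSAB and 2041 CPM in HAMS members (-1.57, -1.87 to -1.28), with -1.13 with alike barcodes counted once and -1.11 at 10 to 20% insulin. Ogdhl had 1400.0 CPM in HAMSAB and 3725 CPM in HAMS members, a ratio of -1.41 over all members, -1.02 with alike barcodes counted once and -1.1 at 10 to 20%. Bhlhe41, a repressor of the circadian clock, had 651 CPM in HAMSAB and 1559 CPM in HAMS members, with -1.26, -1.36 and -1.28 in the same order, and was seen in 39.8% of HAMSAB and 63.2% of HAMS members. Impact, a regulator of the amino acid sensor Gcn2, had 302 CPM in HAMSAB and 694 CPM in HAMS members with -1.2, -1.4 and -1.25 in that order. The small GTPase gene Arf3 (-1.15), Lrrc10b (-1.26) and the deacetylase gene Sirt6 (-1.6) also stayed at least 2-fold lower under both limits.

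The other genes named on the lower side varied with the alternatives. Gpx3, a secreted glutathione peroxidase, had 17 UMIs in HAMSAB and 69 in HAMS members (-2.01), but -0.11 with alike barcodes counted once, since 51 HAMS UMIs lay in that set, and -4.48 to 1.99 over 14 alternatives. Pcca, a subunit of propionyl-CoA carboxylase, had -1.22 over all members and -0.72 with alike barcodes counted once, and Fkbp8, a protein of the mitochondrial outer membrane, -1.74 and -1.25. Over the same alternatives Pcca ranged from -1.83 to -0.29 and Fkbp8 from -3.26 to -0.93. Actb, which encodes the cytoskeletal beta actin, had 33314 CPM in HAMSAB and 57022 CPM in HAMS members (-0.78), under 2-fold apart. Immune barcodes held 235998 CPM of Actb in HAMSAB and 256756 CPM in HAMS, and the part of free RNA in the members' level was not tested.

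**Figure D3:**
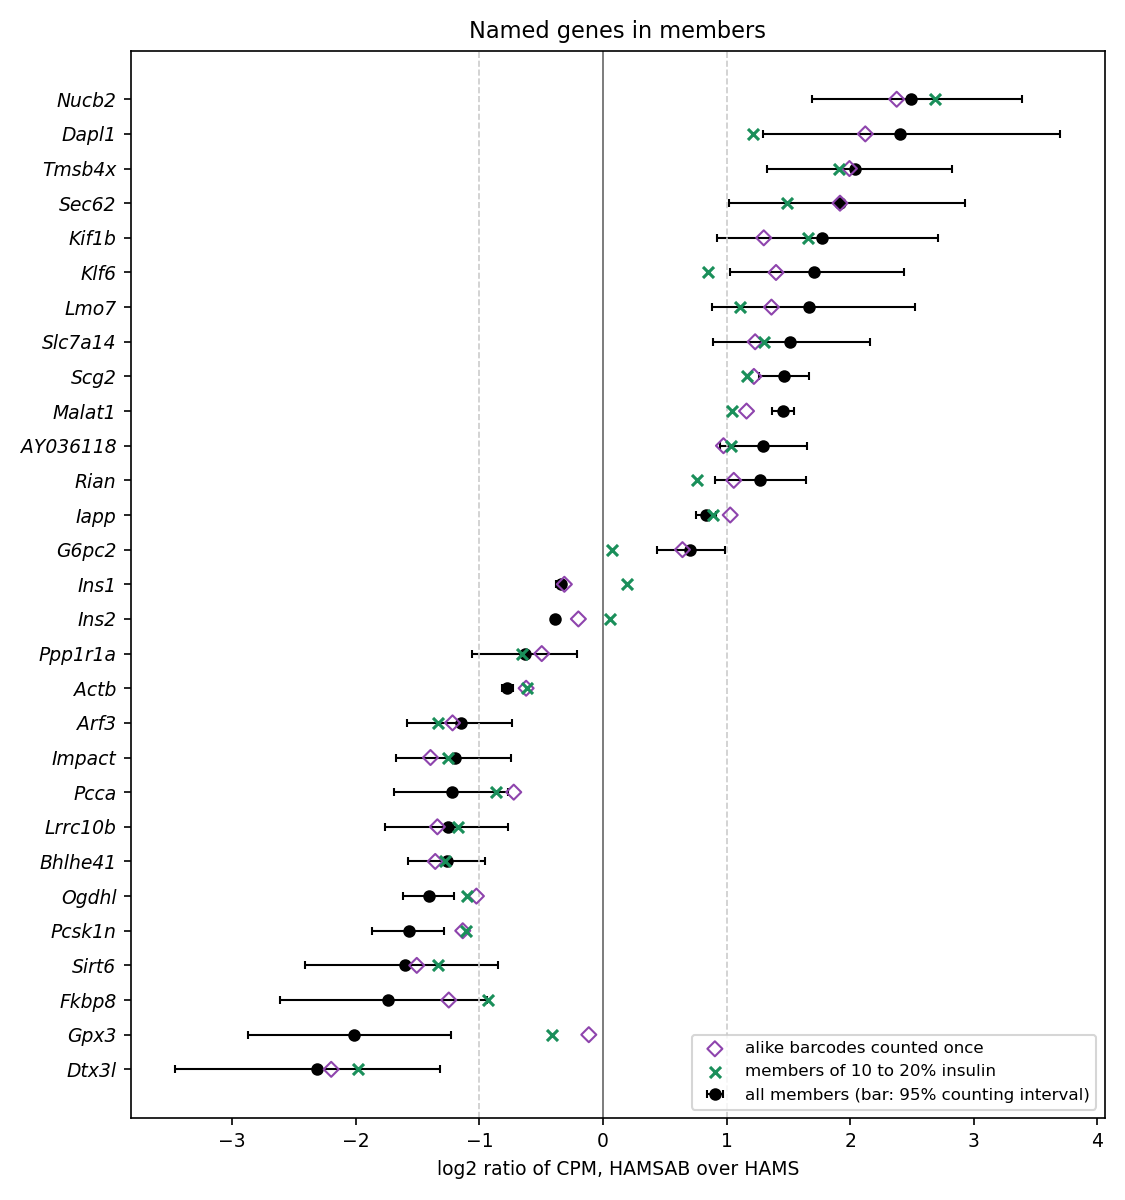
Log2 ratio of CPM, HAMSAB over HAMS (x axis), of the genes picked by the naming rule and the markers (y axis) in all members with 95% counting intervals, with alike barcodes counted once and in members of 10 to 20% insulin. The dashed lines mark 2-fold. Gpx3 was at -2.01 in all members and -0.11 with alike barcodes counted once, and Nucb2 at 2.49 and 2.38.

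Of the defining markers, Iapp had 17336 CPM in HAMSAB and 9729 CPM in HAMS members, a log2 ratio of 0.83 (0.75 to 0.92) that was 1.03 with alike barcodes counted once and 0.89 at 10 to 20% insulin. G6pc2 had 1514 CPM in HAMSAB and 927 CPM in HAMS members (0.71, 0.43 to 0.98), and 0.07 at 10 to 20%. Ppp1r1a went the other way, with 411 CPM in HAMSAB and 637 CPM in HAMS members (-0.63, -1.06 to -0.21) and -0.65 at 10 to 20%. The insulin genes themselves had -0.34 and -0.39 over all members and 0.19 and 0.05 at 10 to 20%, values that follow the insulin shares by which members were chosen.

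Beta cell transcription factors were mostly higher in HAMSAB over all members, but their median at 10 to 20% insulin was that of all genes to the first decimal. Of 11 measured genes of 18 listed, 9 were higher and 2 lower in HAMSAB members, 3 and 1 of them by 2-fold or more, beside 16.4% and 4.73% of all genes. Over all 2538 genes 1644 were higher. The median of the list was 0.54, against 0.27 for all genes, and 0.03 against 0.02 among members of 10 to 20% insulin. Mafa had 1556 CPM in HAMSAB and 1274 CPM in HAMS members (0.29, 0.04 to 0.54) and -0.03 with alike barcodes counted once. Neurod1, which binds the E box printed above, had 390.3 CPM in HAMSAB and 249 CPM in HAMS members (0.65, 0.11 to 1.2), and Pdx1 had 13 and 9 UMIs (0.54, -0.8 to 1.94). Rfx3, needed for islet development, had 25 UMIs in HAMSAB and 6 in HAMS members (2.07, 0.75 to 3.64), and Nkx2-2 had 30 and 12 (1.33, 0.32 to 2.43). Both stayed at least 2-fold higher under both limits. Insm1 (0.48), Pax6 (0.35), Isl1 (1.01), Tcf7l2 (0.81), Nkx6-1 (-0.1) and Foxa2 (-1.09) had intervals that included 0.

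Glucose sensing and excitability genes had a median of 0.39, with 10 of 14 higher in HAMSAB members, beside 0.27 and 1644 of 2538 for all genes, and 0.08 among members of 10 to 20% insulin. Prlr, the prolactin receptor gene, had 900.4 CPM in HAMSAB and 378 CPM in HAMS members (1.25, 0.85 to 1.67), and the fatty acid receptor gene Ffar1 had 30 and 13 UMIs (1.21, 0.23 to 2.28). They were at 0.6 and 0.53 at 10 to 20%. The calcium pumps of the endoplasmic reticulum, Atp2a2 and Atp2a3, had 0.72 (0.45 to 0.99) and 0.47 (0.09 to 0.85). Slc2a2, the glucose transporter GLUT2 gene, had 463 CPM in HAMSAB and 326 CPM in HAMS members (0.51, 0.02 to 0.99) and 0.08 at 10 to 20%. Abcc8, the sulfonylurea receptor subunit of the potassium channel, had 0.54 (-0.21 to 1.3), the zinc transporter gene Slc30a8 0.3 (-0.24 to 0.85) and the incretin receptor gene Glp1r -0.28 (-1.0 to 0.43), all with intervals that include 0. So did Ucn3 (-0.16), Cacna1a (0.2) and Cacna1d (-0.32).

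Genes of the secretory granule had a median above that of all genes in all members and under both limits. Of 22 measured, 17 were higher and 5 lower, 5 at least 2-fold higher (beside 16.4% of all genes), and 11 had intervals above 0 and 1 below. Over all 2538 genes 1644 were higher, with 464 intervals above 0 and 198 below. The median was 0.52, 0.36 with alike barcodes counted once and 0.36 at 10 to 20% insulin, where all genes had 0.27, 0.15 and 0.02. Besides Nucb2, Scg2 and Iapp, Cpe, the carboxypeptidase that trims prohormones, had 1135 CPM in HAMSAB and 544 CPM in HAMS members (1.06, 0.72 to 1.41). The granins Scg3, Chgb and Scg5 had 0.75 (0.44 to 1.07), 0.71 (0.46 to 0.97) and 0.54 (0.29 to 0.8). Chgb had 51 of its 348 HAMSAB UMIs in 1 barcode. The convertase gene Pcsk1 had 333 CPM in HAMSAB and 207 CPM in HAMS members (0.68, 0.09 to 1.29, 0.06 at 10 to 20%), while Pcsk2 (-0.05, -0.27 to 0.17), Chga (-0.08, -0.17 to 0.02) and the amidating enzyme gene Pam (0.02, -0.08 to 0.13) had intervals that include 0. Ero1lb, an oxidase of proinsulin folding, had 0.81 (0.5 to 1.13), Cltrn 1.31 (0.68 to 1.97) and Ptprn2 1.33 (0.08 to 2.72). Sytl4 (0.39), Cd63 (0.36), Atp6ap2 (0.5), Resp18 (0.29), Scgn (-0.13) and Ptprn (-0.59) were not apart beyond counting error. Pcsk1n was the one gene of the list that was lower by 2-fold or more.

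The exocytosis list had a median of 0.04, with 8 of 14 genes higher in HAMSAB members, beside 0.27 and 1644 of 2538 for all genes. Counting alike barcodes once, 5 of 14 were higher (median -0.12), and at 10 to 20% insulin 3 of 8 (-0.22). Over all genes 1342 of 2260 and 817 of 1624 were higher in that order. Syt13, a synaptotagmin, had 474 CPM in HAMSAB and 202 CPM in HAMS members (1.23, 0.67 to 1.81), the priming factor gene Cadps 1.4 (0.54 to 2.33) and the SNARE gene Snap25 0.95 (0.46 to 1.46). Rab3b had 5 UMIs in HAMSAB and 22 in HAMS members (-2.13, -3.89 to -0.69), while Rab3a and Rims2 had intervals that include 0. The list of islet autoantigens had a median of 0.51 over 9 measured genes and 0.07 at 10 to 20% insulin, led by Ptprn2, Iapp and G6pc2, with Ica1 (-0.12) and Ptprn lowest.

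Of 24 endoplasmic reticulum folding and stress genes, 18 were higher and 6 lower in HAMSAB members (median 0.3, and 0.11 at 10 to 20% insulin), beside 1644 of 2538 higher for all genes. Counting alike barcodes once, 20 of 24 were higher, 6 with intervals above 0 and 0 below. Over all 2260 genes 1342 were then higher, with 276 intervals above 0 and 167 below. Dnajb9, a co-chaperone induced by unfolded protein, had 984 CPM in HAMSAB and 440.3 CPM in HAMS members (1.16, 0.78 to 1.55) and P4hb, the protein disulfide isomerase gene, 385 CPM in HAMSAB and 161 CPM in HAMS members (1.26, 0.64 to 1.92). Hyou1 (-0.77, -1.1 to -0.45) and Sdf2l1 (-0.87, -1.48 to -0.28) were lower over all members, but both had 0.04 with alike barcodes counted once. Dnajb11 had 18 and 6 UMIs, and its ratio of 1.59 turned to -0.74 at 10 to 20%. Asns, the asparagine synthetase gene, had -0.3 (-1.31 to 0.69). Of 19 immediate early genes, 8 were higher and 11 lower (median -0.08). Counting alike barcodes once, 6 were higher and 12 lower (-0.29), and at 10 to 20% insulin 2 and 13 of 15 (-0.21). Over all genes 1342 were higher and 918 lower counted once, and 817 and 807 at 10 to 20%. Fos, a subunit of the AP-1 factor, had 2337 CPM in HAMSAB and 3958 CPM in HAMS members (-0.76, -0.93 to -0.59), with -0.97 with alike barcodes counted once and -1.17 at 10 to 20%. Zfp36, which promotes mRNA decay, had 28 and 11 UMIs (1.35, 0.3 to 2.51) and Gadd45b 6 and 18 (-1.58, -3.2 to -0.18), while Klf4 had 0.56 (0.03 to 1.11) and Sik1 -0.73 (-1.76 to 0.25). Of 11 heat shock chaperones, 9 were higher (median 0.43, and 0.00074 at 10 to 20%), with Hspa1b at 0.88 (0.21 to 1.57) and Dnajb1 lowest at -0.82 (-1.25 to -0.41).

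Interferon-induced genes that the rule did not use were lower in HAMSAB members. Of 37 listed, 7 were measured and all 7 were lower, 4 at least 2-fold, beside 894 of 2538 and 4.73% of all genes. The median was -1.09, -0.89 with alike barcodes counted once and -1.36 at 10 to 20% insulin. Such genes are known to be induced together with those of the rule, so its limit bears on them in both libraries. That limit is a raw count. HAMSAB members were deeper (median 793 against 586 UMIs), so it was stricter per UMI there. The rule's own 8 genes stood at 275 CPM without insulin in HAMSAB and 469 in HAMS members. How much of the lower levels follows from the limit was not tested. Gbp3, a guanylate-binding protein gene, had 5 UMIs in HAMSAB and 33 in HAMS members (-2.72, -4.43 to -1.35), and Ly6e had 22 and 48 (-1.12, -1.92 to -0.36). Cxcl10 had 7 and 15 UMIs (-1.09, -2.63 to 0.29), Irf1 11 and 18, and Ifi27 8 and 15. A single UMI of the rule's genes was held by 41 of 196 HAMSAB and 64 of 228 HAMS members. MHC class I genes had a median of -0.17 over 8 measured. B2m, the light chain, had 916 CPM in HAMSAB and 601 CPM in HAMS members (0.61, 0.26 to 0.96) and H2-D1, a heavy chain, 562 CPM in HAMSAB and 482 CPM in HAMS members (0.22, -0.19 to 0.64). The transactivator gene Nlrc5 had 7 and 18 UMIs (-1.36, -2.86 to -0.03) and H2-Q4 7 and 19 (-1.43, -2.93 to -0.12), while H2-Q7 and Psme1 had intervals that include 0.

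Genes of the mitochondrial genome were higher in HAMSAB members in 11 of 12 cases, with a median of 0.7, 0.46 with alike barcodes counted once and 0.33 at 10 to 20% insulin. Over all genes 1644 of 2538 were higher, with medians of 0.27, 0.15 and 0.02 in the same order. The median mitochondrial share was 0.999% in HAMSAB and 0.768% in HAMS members. mt-Cytb had 2061 CPM in HAMSAB and 1015 CPM in HAMS members (1.02, 0.77 to 1.28) and mt-Nd1 1015 CPM in HAMSAB and 482 CPM in HAMS members (1.07, 0.71 to 1.45). mt-Nd6 was lowest at -0.21 (-0.63 to 0.22). The nuclear respiratory chain list had a median of 0.22 over 17 measured of 39. Cox7b had 1.08 (0.28 to 1.92) and Cox4i1 -1.04 (-2.08 to -0.08), while Cox6b1, Sdha, Atp5e and Atp5g3 had intervals that include 0. Of the glycolysis list 4 of 15 were measured, with Pkm, the pyruvate kinase gene, at -0.86 (-1.58 to -0.17) and Gapdh, Aldoa and Pgam1 with intervals that include 0.

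The remaining lists rest on fewer genes. Of 9 antioxidant genes, 5 were higher and 4 lower in HAMSAB members, with Sod1, the cytosolic superoxide dismutase gene, at 1202 CPM in HAMSAB and 730.5 CPM in HAMS members (0.72, 0.41 to 1.03). Txnrd1 (1.08), Prdx1 (0.52), Sod2 (-0.23) and Gpx4 (-0.72) had intervals that include 0. Of 8 circadian clock genes 3 were lower, among them Bhlhe41 and Cry2 (-0.5, -1.0 to -0.0021), while Nr1d1, Nr1d2, Per2 and Rora had at most 17 UMIs in a library. Of the 16 short-chain fatty acid receptor and histone deacetylase genes, 1, Hdac1, reached 20 UMIs, with 13 in HAMSAB and 8 in HAMS members. Proliferation genes were measured 2 times of 16, with Pcna at 28 and 8 UMIs (1.81, 0.64 to 3.16) and Cdkn1a at 11 and 21. Of 16 chemokine and cytokine response genes 4 were measured, with Nfkbia, the NF-kB inhibitor gene, at 0.54 (0.04 to 1.05), Birc3 at 1.42 (-0.01 to 3.06) and Socs3 at 0.48. Genes normally low in beta cells gave 2 measured of 14, Maob (16 and 12 UMIs) among them.

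**Figure D4:**
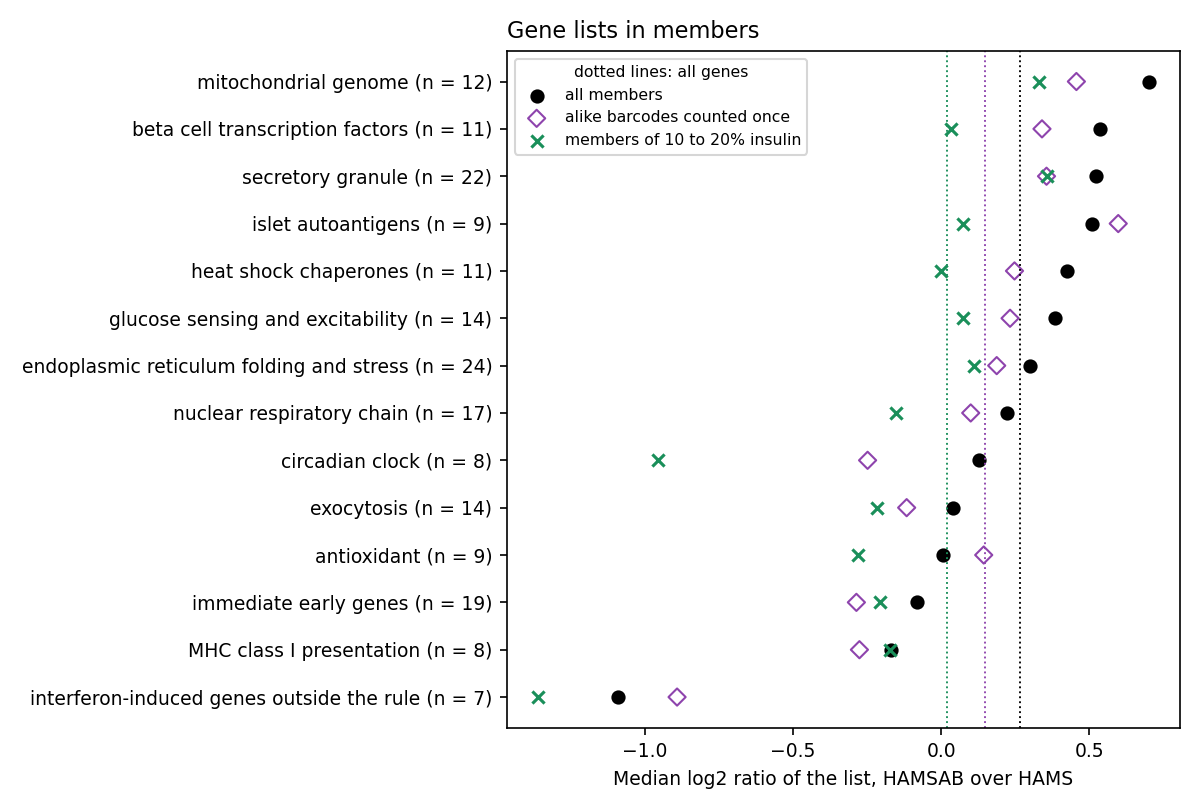
Median log2 ratio of each gene list, HAMSAB over HAMS (x axis), in all members, with alike barcodes counted once and in members of 10 to 20% insulin, with the number of measured genes in all members. Dotted lines mark the medians of all genes with at least 20 UMIs, 0.27, 0.15 and 0.02, and the interferon list lies below them in each case. The interferon limit of the rule bears on that list.

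Members were then set beside the insulin-rich barcodes that the rule left out for 2 or more interferon UMIs, 97 in HAMSAB and 88 in HAMS. These were deeper, with medians of 1381 and 745 UMIs against 793 and 586 in members, and a limit in raw UMIs lets shallow barcodes pass more easily. The 8 genes of the rule summed to 275 CPM without insulin in HAMSAB members and 5578 CPM in their interferon counterparts, and to 469 and 5779 CPM in HAMS. Ratios here are log2 of members over these barcodes, on CPM without insulin. In HAMSAB 1.69% and in HAMS 1.71% of genes with at least 50 UMIs were 2-fold higher or more in members, and 2.68% and 1.4% were 2-fold lower or more.

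Interferon genes that the rule did not count were lower in members in both libraries. Interferon UMIs sorted these barcodes, and such genes are known to be induced together, so their values describe the sorting and test nothing. In HAMSAB 9 of 9 measured and in HAMS 8 of 8 were lower, with medians of -1.84 and -0.87. Of the MHC class I list 11 of 12 and 10 of 11 were lower (medians -1.1 and -0.37). With alike barcodes counted once the HAMS medians were -1.09 for the interferon list and -0.27 for the MHC class I list. Over all genes 1287 of 2589 and 889 of 1753 were lower, with medians of 0.004 and -0.013. The chemokine gene Cxcl10 had -2.91 in HAMSAB and -1.54 in HAMS, and Cd274, the gene of the checkpoint ligand PD-L1, -3.4 in HAMSAB and -1.71 in HAMS. Gbp7 had -1.84 in HAMSAB and -1.29 in HAMS, and Gbp8 -1.41 and -1.7. B2m had -1.0 in HAMSAB and -0.75 in HAMS. Jchain, a plasma cell gene, had 18 UMIs in HAMSAB members and 99 in the barcodes with interferon RNA, and 0 and 9 in HAMS. Slpi, a secreted protease inhibitor gene, had 0 and 57 UMIs in HAMSAB and 0 and 4 in HAMS.

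Genes higher in members than in barcodes with interferon RNA were of several kinds. Actb had 0.63 in HAMSAB and 0.52 in HAMS, the marker Ppp1r1a 1.03 and 0.8, and Pcsk1n 0.65 and 0.66. With alike barcodes counted once their HAMS ratios were 0.28, 0.67 and 0.2 in that order. The metallothionein gene Mt2 had 1.45 and 0.8, the vitamin D receptor gene Vdr 1.36 and 1.56, Vstm2l 1.55 and 1.53, the mitochondrial carrier gene Sfxn2 0.86 and 0.9, and Kdelr2, a retrieval receptor of the endoplasmic reticulum, 0.4 and 0.44. Of the endoplasmic reticulum folding and stress list 21 of 25 genes in HAMSAB and 17 of 22 in HAMS were lower in members, with medians of -0.24 and -0.21. The HAMS median was -0.15 with alike barcodes counted once. Of all genes 1287 of 2589 in HAMSAB and 889 of 1753 in HAMS were lower, and 1302 and 864 were higher. Secretory granule genes had medians of -0.02 and 0.0011, and 7 of 10 measured beta cell transcription factors were higher in HAMSAB members and 0 of 5 in HAMS members.

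**Figure D5:**
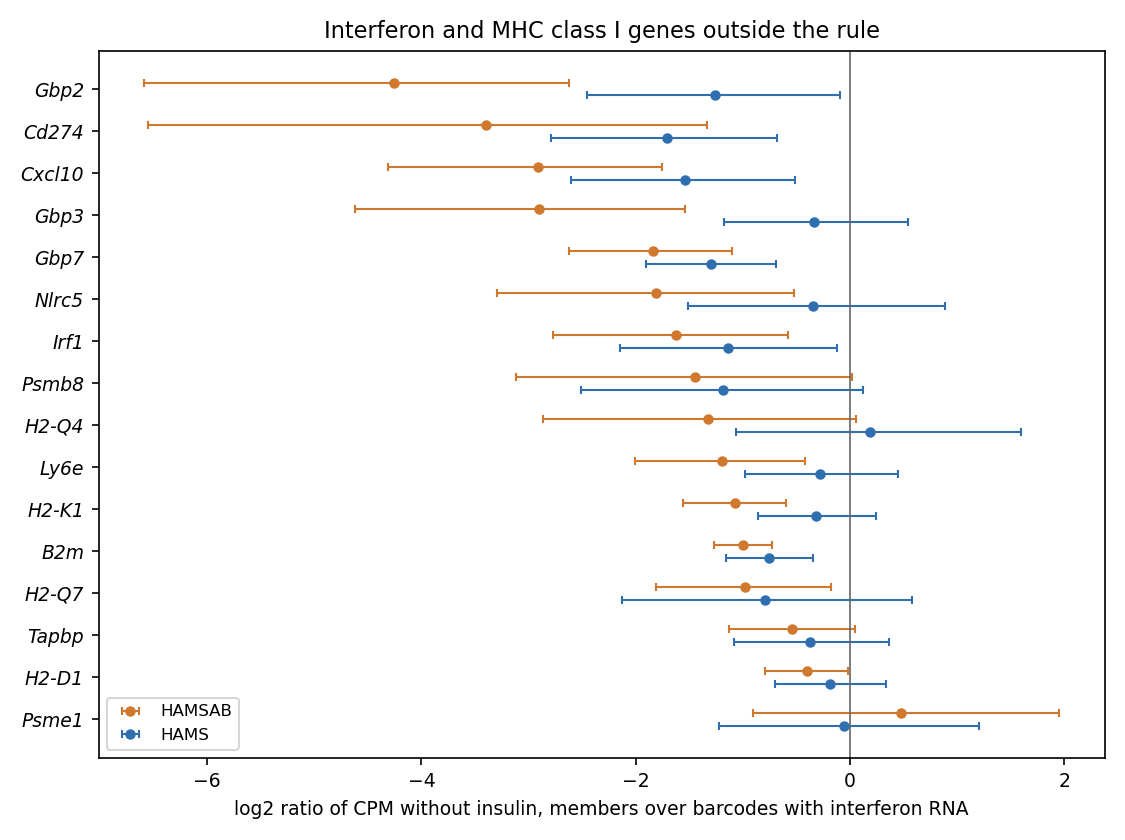
Log2 ratio of CPM without insulin, members over insulin-rich barcodes with 2 or more interferon UMIs (x axis), for 16 genes of the interferon and MHC class I lists with at least 20 UMIs in each library (y axis), with 95% counting intervals. 14 of the 16 were lower in members in both HAMSAB and HAMS. Interferon UMIs had sorted the barcodes, so these ratios describe the sorting and test nothing.

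Insulin-low barcodes, with insulin at 2% to 10% of UMIs, the same hormone and interferon limits and at most 1 UMI of the immune panel, numbered 261 in HAMSAB and 552 in HAMS, with medians of 660 and 558 UMIs. Of genes with at least 50 UMIs, 2.59% in HAMSAB and 3.53% in HAMS were 2-fold higher or more in members, and 1.25% and 5.42% were 2-fold lower or more. Ratios here are log2 of members over insulin-low barcodes, on CPM without insulin. Iapp, which no limit touches, had 1.2 in HAMSAB and 0.92 in HAMS. Mt1 had 1.64 in HAMSAB and 1.04 in HAMS, the transthyretin gene Ttr 1.29 in HAMSAB and 1.4 in HAMS, the cysteine protease inhibitor gene Cst3 0.94 in HAMSAB and 0.97 in HAMS and Fau 0.99 in HAMSAB and 1.22 in HAMS. Cd74 (2.47 in HAMSAB and 2.46 in HAMS) belongs to the immune panel that limited the insulin-low barcodes, and H2-Aa (2.67 in HAMSAB and 1.62 in HAMS) and H2-Ab1 (2.25 in HAMSAB and 1.74 in HAMS) are class II genes of the same immune cells. With alike barcodes counted once the HAMS ratios were 1.99, 1.27 and 0.65. On the lower side were nuclear RNAs, Kcnq1ot1, an imprinted antisense RNA, with -1.01 in HAMSAB and -1.22 in HAMS and Malat1 with -0.19 in HAMSAB and -1.01 in HAMS, and Nktr (-0.36 in HAMSAB and -0.5 in HAMS). The mRNA-binding gene Cpeb4 had -0.47 in HAMSAB and -0.56 in HAMS, Rab27a, a GTPase of granule docking, -0.51 in HAMSAB and -0.41 in HAMS, Sod1 -0.36 in HAMSAB and -0.59 in HAMS, Dcaf8 -0.94 in HAMSAB and -0.92 in HAMS and Sik2 -1.3 in HAMSAB and -2.27 in HAMS.

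The lists were also set between members and insulin-low barcodes. Secretory granule genes had medians of 0.11 in HAMSAB and 0.1 in HAMS, and beta cell transcription factors -0.09 and -0.41, beside 0.02 and -0.12 over all genes. Islet autoantigens had 0.22 and 0.19 and heat shock chaperones 0.38 and -0.19. Interferon-induced genes outside the rule had -0.51 over 4 measured genes in HAMSAB and 0.52 over 9 in HAMS. With alike barcodes counted once the latter was 0.22. The nuclear respiratory chain list had 0.43 and 0.57, with 13 of 20 and 20 of 25 genes higher in members. Over all genes 1496 of 2942 in HAMSAB and 1568 of 3757 in HAMS were higher. Genes of the mitochondrial genome had a median of 0.03 in HAMSAB and -0.75 in HAMS, where 0 of 13 were higher in members, and -0.49 with alike barcodes counted once.

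The authors' deposited table of beta cells was made from cells of the same libraries and is no independent measurement. It gives an average log2 fold change over the beta cells that the authors chose. The members' ratios are of UMIs summed over barcodes chosen by the rule, so cells and measure differ. Its comparison column reads HAMSAB, which in Seurat output is the group on top of the fold change, though the table does not say so. In the authors' deposited table Iapp had a log2 fold change of 0.66, Scg2 0.76 and G6pc2 0.44, where the members had 0.83, 1.46 and 0.71. For Bhlhe41, Impact and Fos the authors' deposited table gave -0.73, -0.91 and -0.83, beside -1.26, -1.2 and -0.76 in members. Ins1 stood at 0.26 in the authors' deposited table, against -0.34 over all members and 0.19 among those of 10 to 20% insulin. For Ptma the authors' deposited table gave -0.41, against 0.47 over all members and 0.08 at 10 to 20%. The genes set beside that table were chosen after their values were seen.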

How the data were processed

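Per the labels' protocols, both libraries came from a Chromium 3' kit. The matrices were written by Cell Ranger 5.0.0, per the file headers. The matrices deposited by the authors hold raw UMI counts per gene and barcode. The submitters' processing notes name mm10, GRCm38 and Seurat. No cell calling setting or annotation release is given in the sources used here. Of the fold change tables by the authors only the one on beta cells was used, for its log2 values and not for its adjusted p-values.

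Barcodes were kept from 200 genes upwards, with mitochondrial UMIs up to 20%. Members' UMIs were summed per library. CPM have exact Poisson, ratios exact conditional binomial and shares exact Clopper-Pearson 95% intervals (Python 3.11.15, scipy 1.17.1). Only the ratio intervals were run on simulated counts. Those counts were Poisson draws, so the run says nothing on variation between barcodes beyond counting error. Genes needed 50 UMIs over both libraries to be counted and 20 in a list, and 2-fold was called. Named were the 12 highest and 12 lowest ratios by the bound nearest 0 (8 and 8 along the insulin share and against other barcodes), leaving out rule genes, mitochondrial, ribosomal, Gm, Rik, immunoglobulin, T cell receptor and haemoglobin genes and genes under 0.1 of the CPM of alpha or immune barcodes. The markers, 3 lists in full and up to 3 genes at each end of the others were named too. The naming rule against other barcodes was added later. Immune barcodes held at least 2 UMIs of 12 immune genes and under 10% insulin. Alike sets had at least 80% of pairs with a chi-square p over 0.01, over genes with 8 UMIs in the pair. The alternatives changed 1 limit, denominator, weight or set of members at a time. Members and lists were chosen with earlier results of these data known. Some genes of the lists are not reported here by name. Sequences came from RefSeq promoters.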

Additional observations from a re-analysis of the deposited data

Results flagged for a closer look

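For 18 genes the change along the insulin share, members of at least 30% over members of 10 to 20%, went opposite ways in the libraries, with both counting intervals clear of 0. The difference itself was not tested. In the log2 ratios given here HAMSAB comes before HAMS. Higher in the insulin-richest HAMSAB members and lower in the HAMS ones were Hsp90b1 (0.41 and -0.62), Hspa5 (0.47 and -0.56), Scg2 (0.30 and -0.54), Slc30a8 (1.03 and -1.12) and Xbp1 (2.94 and -1.95). So were Iqgap1 (0.76 and -0.86), Leng8 (1.34 and -3.23), Leng9 (1.10 and -2.54), Nktr (0.87 and -1.34) and Tnpo1 (1.30 and -2.16). In HAMS members of at least 30% insulin Leng8 had 1 UMI, Leng9 2, Tnpo1 2 and Xbp1 3, so their HAMS ratios rest on few counts. The reverse was seen for Abhd2 (-0.43 and 0.20), Actb (-1.15 and 0.34), Cd74 (-1.36 and 1.16), Kdm6b (-0.84 and 0.36), Marf1 (-1.31 and 0.55), Pam (-0.85 and 0.19), Prrc2c (-1.09 and 1.14) and Slc39a1 (-2.01 and 0.71). With alike barcodes counted once, 13 of the 18 still had opposite signs. The HAMS ratios were then 0.01 for Hspa5, -0.002 for Scg2 and -0.10 for Hsp90b1, and Slc39a1 alone kept both intervals clear of 0 (-1.98 and 0.59). The 11 alike HAMS barcodes hold 36055 of the 78629 UMIs of HAMS members of at least 30% insulin, and the cause was not tested.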

How the results depend on the processing

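No paired analysis was possible because each diet has 1 library, and no replicate could be left out. The ratio of member shares was 1.88 with at least 500 genes per barcode, against 0.777, and between 0.715 and 0.917 under the other 8 alternatives. The count of genes at least 2-fold higher in HAMSAB was 106 of 974 tested. It was 48 of 671 with no interferon UMI and 52 of 906 with other hormones under 0.5%. Without insulin in the denominator it was 64 of 974, and with members weighted equally 66 of 974. Without members over 30% insulin it was 33 of 772, and with alike barcodes counted once 56 of 873. The higher and lower counts, 106 and 39 of 974, were 54 and 10 of 222 after thinning to 1000 UMIs. They were 49 and 19 of 805 without members holding immune UMIs and 23 and 24 of 594 at 10 to 20% insulin. Members with no other hormone UMI gave 43 and 24 of 729. Over genes with 20 UMIs they were 415 and 120 of 2538, and over genes with 200 they were 12 and 8 of 197. With at least 20% insulin they were 71 and 40 of 296, and with at least 500 genes per barcode 95 and 51 of 431. Several alternatives test fewer genes, so a lower count can be a larger share, as it was for higher genes after thinning. The alternatives on alike barcodes, on 10 to 20% insulin, on members over 30% and on members with no other hormone UMI were chosen after seeing the data. Of 1925 values of 139 named genes under the alternatives, 1606 stayed within the counting interval of the reported ratio and 6 reversed a 2-fold call. These were Nr1d2 (-0.21 with no interferon UMI, -0.15 at 10 to 20%), Gpx3 (1.69 with other hormones under 0.5%, 1.99 with no other hormone UMI), and Dnajb11 (-0.74) and Cox6b1 (-0.89) at 10 to 20%. Apart from the Gpx3 UMIs of the alike set, the cause was not tested. Medians of gene lists stayed between the median lower and the median upper interval bound of their listed genes in 204 of 209 cases. Those bounds include genes under 20 UMIs, whose intervals are wide, so staying between them says little about a list. At this depth a gene with 20 UMIs has a wide interval, and an absent difference cannot be told from a small one.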
